A study of Mus musculus with 9 samples.

Results

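Genes of 10 digestive enzymes made by the acinar cells of the pancreas were followed through 9 liver RNA-seq libraries of mice. They are Clps, Pnlip, Cel, Pnliprp1, Ctrb1, Cpa1, Cela2a, Prss2, Cela3b and Amy2a1, which are 10 of the 56748 genes in the deposited count table. The genes were chosen on their measured values, because nearly all of their counts lay in a pair of the libraries given indirubin, so the values below describe these libraries and carry no test.

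The study asked how indirubin, an indigoid compound of the herbal preparation indigo naturalis and a ligand of the aryl hydrocarbon receptor, acts on the liver of mice with chronic colitis. Total RNA of liver from mice labelled C57BL/6 (C57BL/6J in the design text) was sequenced in 3 groups of 3, Control, DSS and Indirubin, from 400 ng of RNA a library. Mice of the DSS group drank 1.8% dextran sulfate sodium, which injures the colon, in 3 cycles with a recovery after each, and were given 200 µL of sterile water a day by mouth. Mice of the Indirubin group had the same cycles and received 1 g/kg of indirubin a day in the same volume of water. For the Control group the labels give water as the treatment, but the design text introduces chronic colitis without saying which groups had it, so whether the Control mice were free of DSS is not settled. Age and sex are not in the labels, and nothing beyond the sample titles says that the libraries of a group came from separate mice, so the spread between them may be partly technical.

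Acinar cells make, store and secrete the enzymes that digest fat, protein and starch in the gut. Most of the proteases are made as inactive precursors, the zymogens, and are activated in the duodenum, where trypsin sets off the cascade. The genes are driven together by pancreatic transcription factors, above all the complex PTF1 that contains Ptf1a and Rbpjl, and the pancreas is their main source in the body.

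The promoters of these genes are shown first, since PTF1 binds an E-box together with a TC-box and gives the family its shared control. RefSeq promoter windows of the GRCm38.p6 build were matched for 9 of the 10 genes, all but Clps, and the 250 bases before each start were searched on both strands. The TC-box letters TTTCCCA, or TGGGAAA on the other strand, were in 5 of the 9, and in 2239 of all 32851 promoters (6.82%). The E-box letters CACCTG, or CAGGTG on the other strand, were in 4 of the 9 and in 17.2% of all promoters. Only this spelling of the E-box was searched. Other spellings are not counted, such as the CAGCTG shortly before the TC-box letters of Ctrb1. Among 30 other acinar genes with a window, the TC-box letters were in 2 and the E-box letters in 19. Here a gene counts once if any of its windows matched, whereas the 6.82% and 17.2% count single promoters. The stretches around the TC-box letters are given 5′ to 3′ on the strand of the gene with those letters in capitals. A match is a description of the letters and was not tested as a binding site.
Ctrb1, chr8:111691149-111691255, minus strand: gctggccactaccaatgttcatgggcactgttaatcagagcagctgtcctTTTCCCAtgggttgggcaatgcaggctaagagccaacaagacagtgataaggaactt
Cela2a, chr4:141826034-141826140, minus strand: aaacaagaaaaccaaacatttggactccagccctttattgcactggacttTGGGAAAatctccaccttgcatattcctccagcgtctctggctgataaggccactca
Cpa1, chr6:30639148-30639217, plus strand: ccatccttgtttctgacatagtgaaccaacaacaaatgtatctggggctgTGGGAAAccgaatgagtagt
Prss2, chr6:41521615-41521721, plus strand: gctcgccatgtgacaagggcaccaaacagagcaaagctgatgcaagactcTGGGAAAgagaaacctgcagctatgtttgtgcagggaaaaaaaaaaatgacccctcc
Cel, chr2:28563434-28563540, minus strand: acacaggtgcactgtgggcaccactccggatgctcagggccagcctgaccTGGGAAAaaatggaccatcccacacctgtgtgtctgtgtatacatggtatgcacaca

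Counted from the start site, the capitals begin at -195 in Ctrb1, -111 in Prss2, -87 in Cel, -85 in Cela2a and -20 in Cpa1. Cel, Cela2a and Prss2 held both kinds of letters searched, Cela3b the E-box letters searched alone, and no match overlapped another. Pnlip, Pnliprp1 and Amy2a1 held neither, which says only that these letters are not in those windows.

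The libraries held 6514863 to 7944684 counts, of which mitochondrial transcripts took 71.6% to 91.3%. Levels are therefore given as CPM over the nuclear counts (nuclear CPM), which are the counts on genes outside the mitochondrial genome, 569044 to 2132208 a library. Indirubin-2 and Indirubin-3 had 1910420 and 1771035 nuclear counts and Indirubin-1 had 701804, while DSS-3, with the most of all, had 2132208. The 13 hepatocyte genes listed, Alb first among them with 30849 to 127946 counts, had more than 3 counts in every library. Their summed level was 79645 to 117481 nuclear CPM in the Control and DSS libraries, 85242 in Indirubin-1, 55102 in Indirubin-2 and 67819 in Indirubin-3.

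Over the 9 libraries the 10 enzyme genes had 33121 counts, of which 33005 (99.6%) were in Indirubin-2 and Indirubin-3 and 116 in the other 7 libraries together. They took 0.911% of the nuclear counts of Indirubin-2 (95% exact binomial interval 0.898% to 0.925%) and 0.881% of those of Indirubin-3 (0.867% to 0.894%). In Indirubin-1 the share was 0.00427%, from 30 counts. The Control libraries had 10, 10 and 60 counts, shares of 0.00129%, 0.00101% and 0.0105%, and the DSS libraries had 0, 0 and 6. Group means were 0.599% ± 0.515 with indirubin, 9.38e-05% ± 1.62e-04 with DSS and 0.00428% ± 0.00542 in Control (SD, n = 3). The SD of the Indirubin group was close to its mean because Indirubin-1 lay with the Control and DSS libraries. All intervals here cover counting error only, since reads without molecular identifiers are not independent molecules. In bulk RNA more cells of a type and more RNA per cell cannot be told apart.

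**Figure D1:**
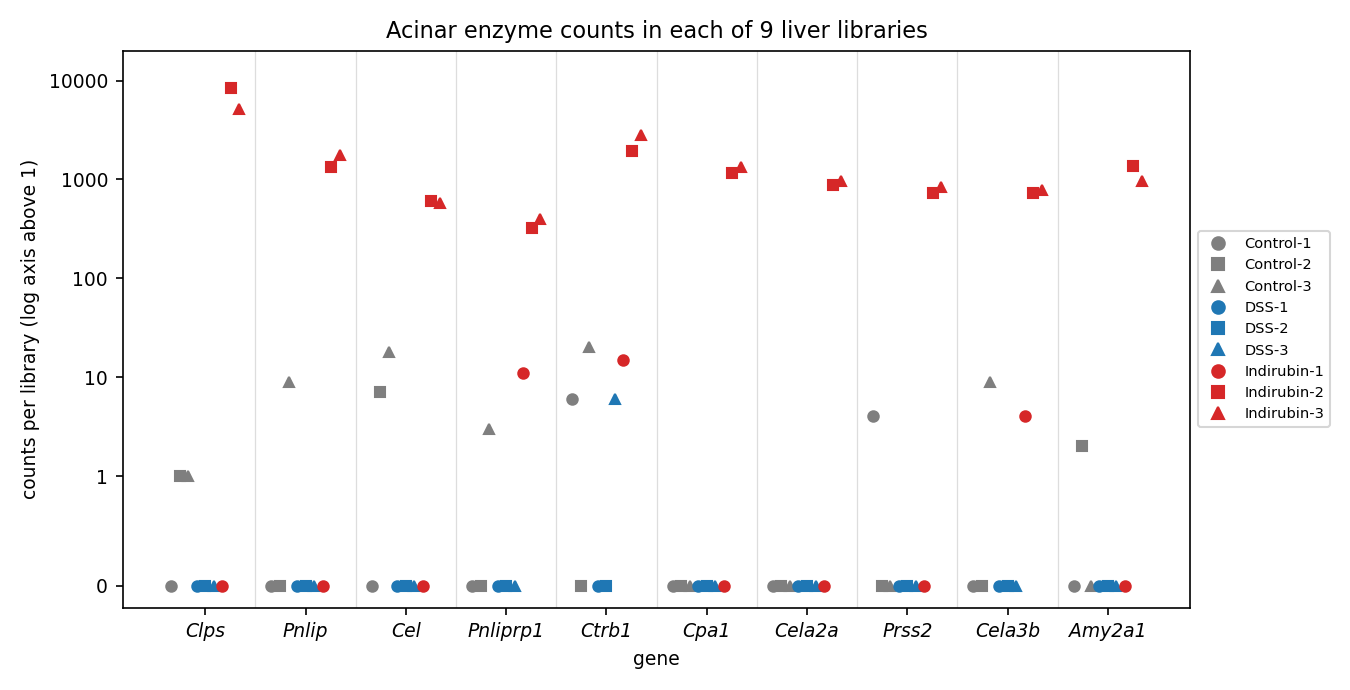
Counts of each of the 10 acinar enzyme genes (vertical axis, log scale above 1 count) with genes along the horizontal axis and 1 symbol for each of the 9 libraries. The points of Indirubin-2 and Indirubin-3 lie between 322 and 8311 counts, while those of the other 7 libraries are at 20 counts or fewer.

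One group of enzymes digests fat. Clps (ENSMUSG00000024225, GRCm39 chromosome 17, 28777123 to 28779740) encodes colipase, the small cofactor that holds pancreatic lipase on the fat droplet. It had 8311 counts in Indirubin-2 and 5161 in Indirubin-3, the most of the 10 in both, and 0 in Indirubin-1. In the DSS libraries it had 0 in each, and in the Control libraries 0, 1 and 1. Its mean level was 2421 ± 2217 nuclear CPM with indirubin (SD, n = 3), at least 922-fold higher than in DSS and at least 596-fold higher than in Control, each set against a floor of 3 counts a library.

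Pnlip (ENSMUSG00000046008, chromosome 19, 58640930 to 58670220) encodes pancreatic lipase itself, which splits triglycerides. Its counts were 0, 1331 and 1772 in Indirubin-1 to Indirubin-3, 0 in every DSS library and 0, 0 and 9 in Control. The mean with indirubin was 566 ± 513 nuclear CPM. Cel (ENSMUSG00000026818, chromosome 2, 28445807 to 28453415), the bile salt-dependent lipase, had 0, 608 and 573 counts with indirubin, 0 in every DSS library and 0, 7 and 18 in Control. Its mean was 214 ± 185 nuclear CPM, 15.1 times the Control mean with libraries under 3 counts set to 3, the smallest fold to Control among the 10. Pnliprp1 (ENSMUSG00000042179, chromosome 19, 58717319 to 58732601) encodes a protein related to pancreatic lipase with little lipase activity of its own. It had 11, 322 and 395 counts with indirubin, 0 in every DSS library and 0, 0 and 3 in Control. It was the least abundant of the 10 in both Indirubin-2 and Indirubin-3, and one of 3 with a count in Indirubin-1.

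Another group digests protein. Ctrb1 (ENSMUSG00000031957, chromosome 8, 112413151 to 112417642) encodes chymotrypsinogen B. It had 15, 1959 and 2817 counts with indirubin, 0, 0 and 6 with DSS, and 6, 0 and 20 in Control. These are the highest counts of any of the 10 in Indirubin-1, DSS-3, Control-1 and Control-3. The mean level was 879 ± 795 nuclear CPM with indirubin, 0.938 ± 1.62 with DSS and 14.3 ± 18.5 in Control, and it was the one gene of the 10 with more than 3 counts in any DSS library.

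Cpa1 (ENSMUSG00000054446, chromosome 6, 30639217 to 30645362) encodes carboxypeptidase A1, which trims aromatic and aliphatic residues from the carboxyl end of peptides. It was at 0 in all 7 other libraries and had 1172 counts in Indirubin-2 and 1327 in Indirubin-3. Cela2a (ENSMUSG00000058579, chromosome 4, 141542273 to 141553471), an elastase, was likewise at 0 in all 7 and had 881 and 961 counts. These were the pair of genes with no count outside Indirubin-2 and Indirubin-3.

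Prss2 (ENSMUSG00000057163, chromosome 6, 41498721 to 41502013) encodes a trypsinogen, the precursor of trypsin. It had 722 and 840 counts in Indirubin-2 and Indirubin-3, 4 in Control-1 and 0 in the rest. Cela3b (ENSMUSG00000023433, chromosome 4, 137148310 to 137157851), a further elastase-family protease, had 4, 725 and 776 counts with indirubin, 0 in every DSS library and 0, 0 and 9 in Control. Amy2a1 (ENSMUSG00000070360, chromosome 3, 113323052 to 113326077) encodes a pancreatic amylase, which splits starch, and had 0, 1379 and 973 counts with indirubin, 0 in every DSS library and 0, 2 and 0 in Control. Amy2a1, Prss2 and Cela3b have near-identical copies elsewhere in the genome, so how the authors' counting divided reads among the copies makes their single-gene values uncertain.

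Against DSS, 9 of the 10 genes had every DSS library at 3 counts or fewer, and their bounds ran from at least 51.7-fold (Pnliprp1) to at least 922-fold (Clps). Ctrb1, with 6 counts in DSS-3, was 284-fold higher when the DSS libraries without counts were set to the same floor of 3. The means behind these folds include all 3 Indirubin libraries, but nearly all of their counts are in Indirubin-2 and Indirubin-3, as Indirubin-1 had 15 counts of Ctrb1, 11 of Pnliprp1, 4 of Cela3b and none of the rest. Against Control, bounds were at least 33.4-fold for Pnliprp1 and at least 112-fold for Cpa1. For genes with more than 3 counts in a Control library, and with libraries under 3 counts set to 3, the folds were 74.7 for Pnlip, 63.3 for Prss2, 57.4 for Ctrb1 and 36.2 for Cela3b. Both comparisons use the same Indirubin libraries.

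Within Indirubin-2 and Indirubin-3 the enzymes kept much the same order but not the same proportions. Of the enzyme counts, Clps took 47.7% in Indirubin-2 (95% exact interval 47.0% to 48.5%) and 33.1% in Indirubin-3 (32.4% to 33.8%). Ctrb1 ranked 2 in both, at 11.3% (10.8% to 11.7%) and 18.1% (17.5% to 18.7%). Amy2a1 ranked 3 in Indirubin-2 at 7.92% and 5 in Indirubin-3 at 6.24%, whereas Pnlip went from 7.65% to 11.4% and Cpa1 from 6.73% to 8.51%. Cel (3.49% and 3.67%) and Pnliprp1 (1.85% and 2.53%) were the lowest 2 in both libraries.

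Long transcripts give more counts, so the order was also read per length from the deposited FPKM. On that scale Clps, the shortest of the 10 at a listed length of 611 bp, made up 65.0% of the summed FPKM of the 10 genes in Indirubin-2 and 50.2% in Indirubin-3, at 1034 and 689 FPKM. Ctrb1 followed with 10.7% and 19.1%, then Amy2a1 with 7.40% and 6.50% and Prss2 with 4.23% and 6.13%. This order rests on the listed lengths, such as 890 bp for Amy2a1 and 1723 bp for Cela2a. Whether they match the transcripts present was not tested. Pnlip, with a listed length of 2195 bp, ranked 4 by counts and 6 per length in Indirubin-2, and Pnliprp1 was last on either scale.

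**Figure D2:**
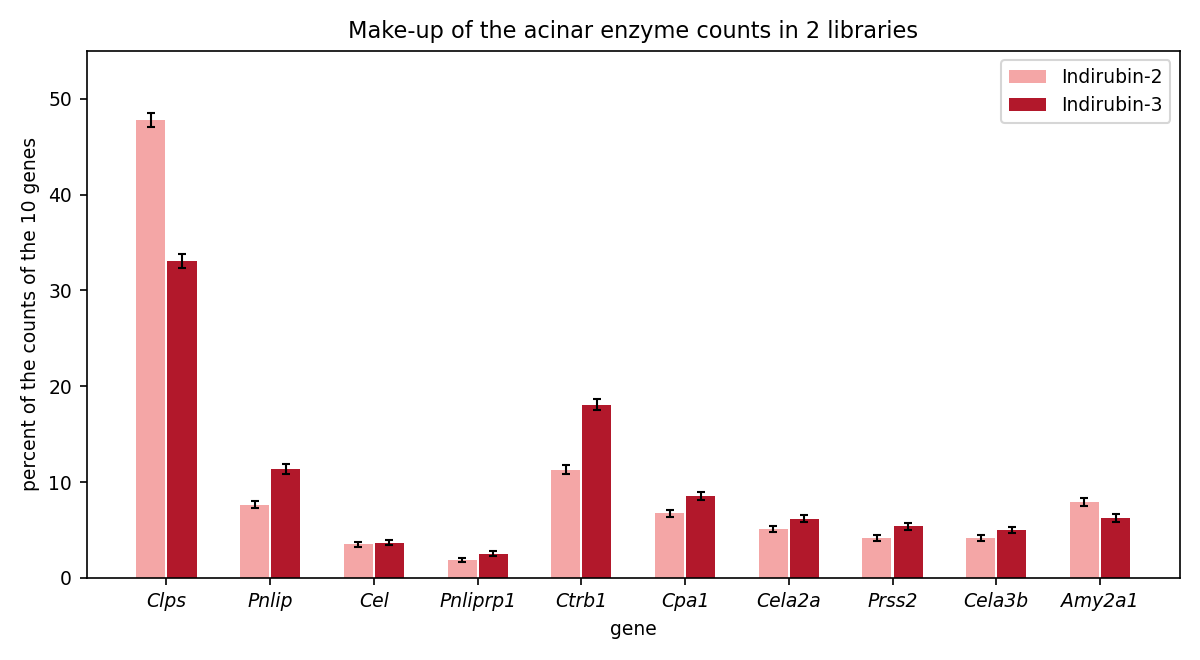
Share of each gene in the summed counts of the 10 acinar enzyme genes (vertical axis, percent) in Indirubin-2 (light bars) and Indirubin-3 (dark bars), with 95% exact binomial intervals. Clps takes 47.7% of 17410 counts in Indirubin-2 and 33.1% of 15595 in Indirubin-3, while Ctrb1 takes 11.3% and 18.1%.

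The few counts in the other libraries were divided differently among the enzymes. In Indirubin-1, Ctrb1 had 15 of the 30 counts (50%, 95% exact interval 31.3% to 68.7%), Pnliprp1 had 11 (36.7%) and Cela3b 4 (13.3%). Clps had 0 of 30, which allows a share of up to 10% at the floor of 3 counts and 11.6% by the exact interval, both below its 33.1% in Indirubin-3. In Control-3, Ctrb1 had 20 of 60 counts (33.3%) and Cel 18 (30%, 18.8% to 43.2%), while Clps had 1 (1.67%, 0.0422% to 8.94%). The Clps interval in Control-3 lies below, and the Cel interval above, the values of both in Indirubin-2 and Indirubin-3. Counts in the remaining libraries were 10 or fewer in all, too few to compare proportions.

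The division of each gene between Indirubin-2 and Indirubin-3 shows how far the enzymes kept a single ratio. Indirubin-3 held 48.1% of the nuclear counts of the pair and 47.3% (46.7% to 47.8%) of the enzyme counts. By gene, its share ran from 38.3% for Clps (37.5% to 39.1%) and 41.4% for Amy2a1 (39.4% to 43.4%) to 57.1% for Pnlip (55.3% to 58.9%) and 59.0% for Ctrb1 (57.6% to 60.4%). The intervals of 2 genes, Clps and Amy2a1, lay below the 48.1% of all nuclear counts, and that of Cel (45.6% to 51.4%) held it. Those of the other 7 lay above it, and without Clps the enzymes summed to 53.4%. Per nuclear count, the level in Indirubin-3 was 0.670 times that in Indirubin-2 for Clps and 1.55 times for Ctrb1, so the 10 genes did not keep 1 ratio beyond counting error. The 13 hepatocyte genes spread more widely over the same pair, with Indirubin-3 shares of 21.9% to 65.1% and a median of 47.6%. Clps is a single gene that carried 13474 of the 33121 enzyme counts and so pulled the sum to a ratio of 0.966. With 1 library each, these ratios compare the libraries and not conditions.

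**Figure D3:**
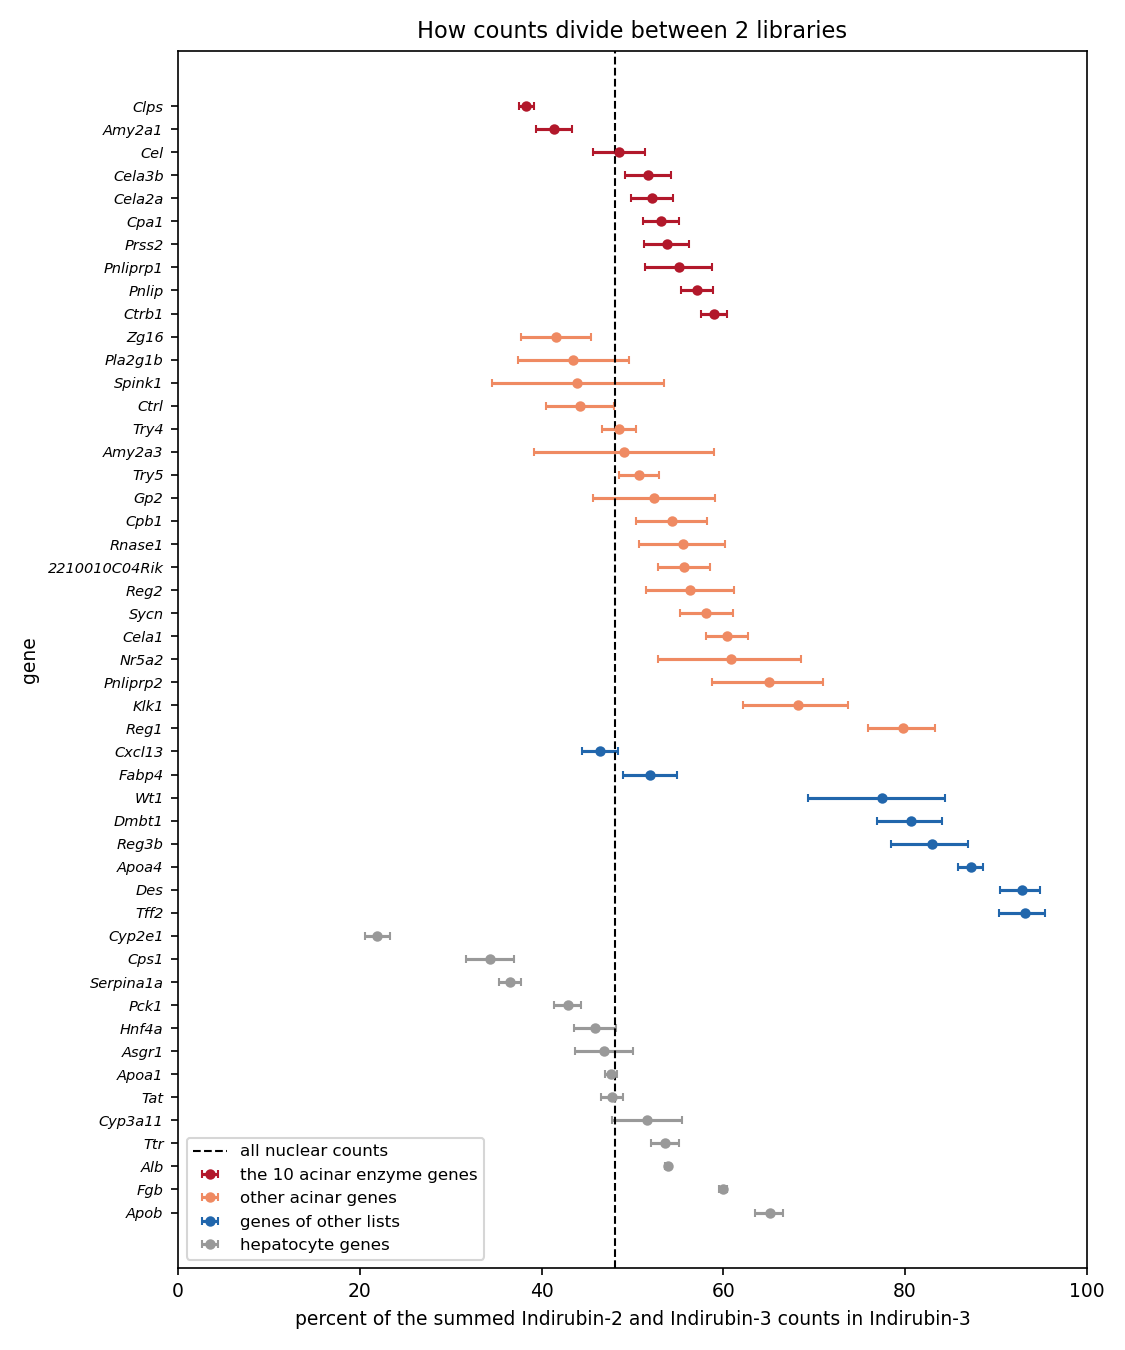
Counts in Indirubin-3 as a percent of the counts in Indirubin-2 and Indirubin-3 together, per gene, with 95% exact binomial intervals, and the dashed line at the 48.1% of all nuclear counts. The 10 acinar enzyme genes run from 38.3% to 59.0%, the other acinar genes from 41.5% to 79.8%, genes of the other lists from 46.4% (Cxcl13) to 93.2% (Tff2) and the hepatocyte genes from 21.9% to 65.1%.

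Sums over the gene families do not depend on how reads were divided among the copies, although reads left out as ambiguous would still be missing from them. The 6 Amy2 genes together had 1479 counts in Indirubin-2 and 1112 in Indirubin-3, 0 in Indirubin-1 and in every DSS library, and 0, 3 and 39 in Control, where 37 of the 39 in Control-3 were assigned to Amy2a4. The 9 trypsinogen genes together had 3693 and 3934 counts in Indirubin-2 and Indirubin-3, 0 in Indirubin-1, 0, 0 and 5 with DSS and 4, 4 and 7 in Control. The Indirubin-3 share was 42.9% for the Amy2 family and 51.6% for the trypsinogens, on the same sides of 48.1% as Amy2a1 and Prss2 alone. Cela3a, the relative of Cela3b on the list, was at 0 in all 9 libraries.

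Amy1, the salivary amylase gene that liver also expresses, is a close relative with another pattern. Its level was 258, 184 and 190 nuclear CPM in Control, 208, 171 and 272 with DSS and 201, 223 and 228 with indirubin. All 3 groups overlapped, and Indirubin-2 and Indirubin-3 lay inside the range of the other libraries. In these 2 libraries the Amy2 family stood at 774 and 628 nuclear CPM, above Amy1.

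**Figure D4:**
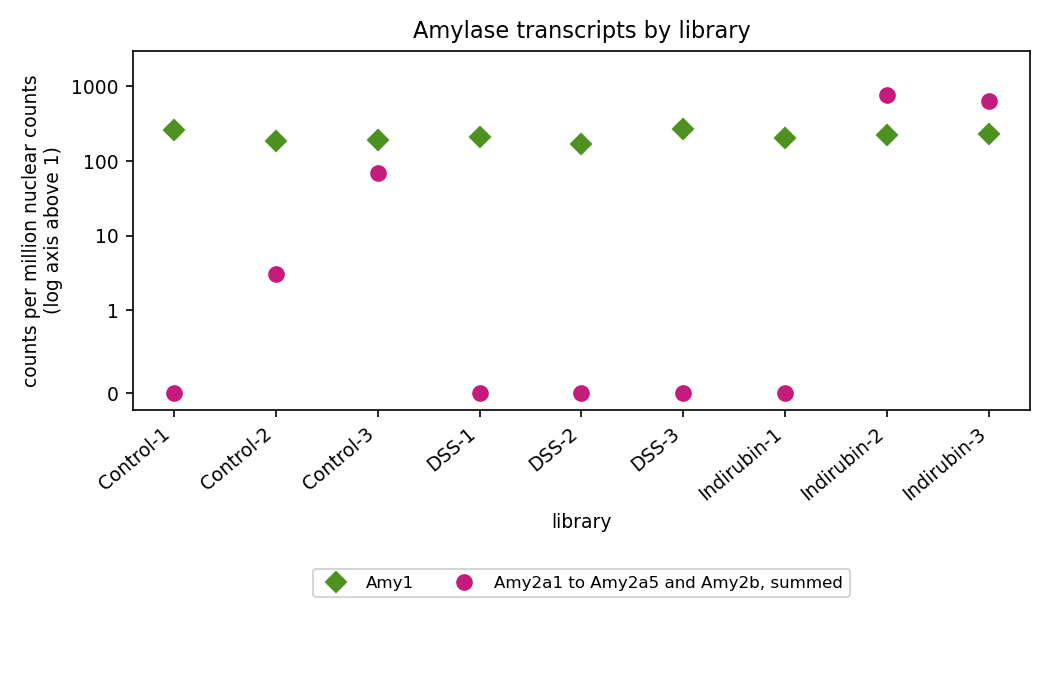
Level of Amy1 and of the 6 Amy2 genes summed (nuclear CPM, log axis above 1) in each of the 9 libraries. Amy1 lies between 171 and 272 in all 9, and the Amy2 sum is 774 in Indirubin-2 and 628 in Indirubin-3 but 68.5 or lower elsewhere.

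Other products of acinar cells were read from a list of 40 genes, 22 further enzymes and 18 secretory proteins, receptors and regulators. The enzymes of the list summed to 2768 nuclear CPM in Indirubin-2 and 3275 in Indirubin-3, to 38.5 in Indirubin-1, to 0 to 30.3 with DSS and to 47.5 to 167 in Control. The other proteins summed to 818 and 1167 in the same 2 libraries, to 74.1 in Indirubin-1, to 18.8 to 61.5 with DSS and to 25.8 to 91.4 in Control. More than 3 counts were present for 28 of the 40 in Indirubin-2, 31 in Indirubin-3 and 2 in Indirubin-1. Of the 26 with more than 3 in both Indirubin-2 and Indirubin-3, 24 had 3 or fewer in Indirubin-1, 22 had 3 or fewer in every DSS library and 12 had 3 or fewer in every Control library. All 9 libraries were at 0 for 5 of the 40, among them the regulators Ptf1a and Rbpjl of the PTF1 complex.

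The trypsinogens Try4 (1457 and 1375 counts in Indirubin-2 and Indirubin-3) and Try5 (968 and 996) had the most counts of the list when summed over the 9 libraries, with 5 and 0 counts in all other libraries together. 2210010C04Rik, a trypsinogen-like gene, had 529 and 664. The carboxypeptidase Cpb1 (297 and 353) and the chymotrypsin-like protease Ctrl (386 and 306) were also among the proteases. These were seen in both libraries at levels under those of Ctrb1 in the same library.

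Sycn, which encodes the zymogen granule protein syncollin, had 470 and 653 counts, and Zg16, a granule lectin, had 387 and 275. Rnase1, the secreted ribonuclease, had 197 and 246 counts and none elsewhere. The lithostathine genes Reg1 (98 and 387) and Reg2 (181 and 234) were also present, and Reg1 had the most uneven division among the genes of the list with at least 100 counts, with 79.8% of the counts of the pair in Indirubin-3. For the 19 genes of the list with at least 100 counts over the pair that share ran from 41.5% (Zg16) to 79.8% with a median of 54.3%, beside a median of 52.6% for the 10 enzymes.

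Cela1, an elastase that tissues outside the pancreas express too, was the one enzyme of the list with counts in most libraries, at 40, 40 and 21 in Control, 26, 0 and 24 with DSS and 26, 683 and 1042 with indirubin. Every Indirubin library was above every DSS library per nuclear count, but Indirubin-1, at 37.0 nuclear CPM, was below Control-1 (51.7) and Control-2 (40.4). Its fitted level with indirubin exceeded that with DSS by 4.77 on the log2 scale, with a standard error of 1.05 and a Benjamini-Hochberg adjusted p of 0.355 in edgeR's quasi-likelihood test, and so did not pass. Against Control the difference was 2.95, with a standard error of 0.77 and an adjusted p of 0.120 from the same test. Nr5a2 and Bhlha15, regulators that acinar cells share with other tissues, had counts in DSS libraries as well. The level of Nr5a2 was 68.4, 31.9 and 53.6 nuclear CPM in Indirubin-1 to Indirubin-3, 11.1 to 48.6 in the DSS libraries and 11.1 to 59.7 in Control. That of Bhlha15 was 0, 5.76 and 7.90 in Indirubin-1 to Indirubin-3, 4.22 to 12.9 in the DSS libraries and 0 to 5.17 in Control.

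The test across all genes shows what these patterns look like to a default analysis. Of 9117 genes tested for Indirubin against DSS by edgeR's quasi-likelihood test, 0 passed an adjusted p of 0.05 (0%), while 406 (4.45%) were higher at an unadjusted p under 0.05 and the Wald test of DESeq2 called 80. Leaving out a library gave 0 to 134 genes called, the highest without Indirubin-1. The filter on low counts, which asks for a level set by a minimum count of 10 in at least 3 libraries, kept 2 of the 10 enzyme genes, Ctrb1 and Pnliprp1, so the other 8 did not enter the fit at all. Every Indirubin library lay above every DSS library in 3 of the 10, Pnliprp1, Ctrb1 and Cela3b, the genes with a count in Indirubin-1, beside 1058 of the 9117 genes tested (11.6%). Cela3b was not among the genes tested, so the 3 of 10 and the 11.6% cover unlike sets of genes. Against Control, 19 of 8059 genes passed (0.236%), a count that leaving out a library moved to between 1 (without Control-2) and 465 (without Indirubin-1) and for which the Wald test of DESeq2 gave 316. Further, 600 were higher at an unadjusted p under 0.05 (7.45%) and 1153 lay above every Control library (14.3%). Of the 10 enzymes 3 were tested there, and 1 lay above every Control library. The enzyme genes were chosen on these counts, so nothing is read from their numbers beside the background.

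Of the 40 other acinar genes, 3 were tested against DSS and 4 against Control, and edgeR's quasi-likelihood test called 0 of either. Without the filter it called 18 of 35 against DSS and 17 of 35 against Control, beside 156 of 23034 and 379 of 22767 genes. Without Indirubin-1 it called 15 and 16 of the 24 tested, beside 134 of 10817 and 465 of 9721 genes. Most of these acinar genes entered only through their high counts in Indirubin-2 and Indirubin-3, so nothing is read from these calls. In the main quasi-likelihood fits 1 gene, Cela1, was higher at an unadjusted p under 0.05 in each comparison. The Wald test of DESeq2 called 0 against DSS and 1 against Control. The median log2 fold change of all genes tested was 0.15 against DSS and 0.13 against Control.

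Other genes were then ranked by how closely their profile over the libraries matched that of the 10 enzymes. For each gene with at least 100 counts the levels of the 9 libraries were expressed as percents of their sum, and the overlap with the profile of the 10 enzymes summed was taken as the total of the smaller percents. Over 8072 genes the median overlap was 23.5%. Among the 10 most alike were Try4 (98.5%), Amy2a3 (97.7%), Try5 (96.1%), Ctrl (96.0%), Sult1e1 (95.7%), Gp2 (93.6%), Zg16 (92.6%), Spink1 (92.5%) and Cpb1 (91.4%). Of the 10, 9 are on the list of other acinar genes, as are 16 of the 30 most alike, beside 19 of all 8072 genes ranked. The exception, Sult1e1, encodes the estrogen sulfotransferase and had 162 counts in Indirubin-2, 169 in Indirubin-3 and 0 in the other 7 libraries.

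Genes listed for neighbouring tissues were read in the same libraries. Among 17 islet genes, 7 were at 0 in all 9 libraries, Gcg of the alpha cells among them. Ins2 had 19 counts in Indirubin-2 and 12 in Indirubin-3 and 0 elsewhere, and Ins1 had 5, 12 and 5 counts with indirubin and 0 elsewhere. The summed islet level was 0 to 14.1 nuclear CPM in Control, 0 to 20.2 with DSS and 21.4, 33.0 and 54.8 with indirubin, against 9113 and 8806 for the 10 enzymes in Indirubin-2 and Indirubin-3. Nkx6-1 had 12 and 38 counts in those 2 libraries, 10 in Indirubin-1, 22 in DSS-1, 8 in Control-3 and 0 in the rest. The 10 duct genes, which bile ducts express too, stood at 49.1 to 79.1 nuclear CPM in Control, 68.9 to 113 with DSS and 69.8, 93.2 and 93.2 with indirubin, and Spp1 and Car2 were among the most abundant, with 60 and 42 counts in Indirubin-2 and 7 and 26 in Indirubin-3.

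Summed levels of the intestine and stomach lists differed between the pair, mostly through a few genes of each list. The 24 intestinal epithelium genes summed to 177 to 209 nuclear CPM in Control, 105 to 146 with DSS, 158 in Indirubin-1, 271 in Indirubin-2 and 1584 in Indirubin-3. Apoa4, an apolipoprotein of intestine and liver, had 284 of the 517 counts of the list in Indirubin-2 and 1943 of the 2805 in Indirubin-3. Dmbt1 had 95 and 397. Of the 24 genes, 4 were at 0 in all 9 libraries, Lct, Muc2 and Cdx1 among them. Fabp2 stood at 20.4 and 11.3 nuclear CPM in Indirubin-2 and Indirubin-3, 22.8 in Indirubin-1, 30.5 to 44.1 with DSS and 0 to 43.9 in Control. Aqp8, a water channel of colon and liver, was lowest in these 2 libraries, at 84.4 to 106 nuclear CPM in Control, 31.0 to 47.8 with DSS and 55.6, 0.523 and 10.2 in Indirubin-1 to Indirubin-3. The 15 stomach genes summed to 0 to 9.05 nuclear CPM in Control and DSS and to 12.8, 20.4 and 303 with indirubin. Tff2 (29 and 396 counts), Muc6 (4 and 63) and Gkn3 (0 and 53) led the list in Indirubin-2 and Indirubin-3. Of the 15, 8 were at 0 in all 9 libraries, Pgc and Atp4b among them. Atp4a gave the 9 counts of Indirubin-1 and had 0 in Indirubin-2 and Indirubin-3. Indirubin-3 held 93.2% of the Tff2 counts of the pair (90.3% to 95.4%) and 59.0% at most of those of any of the 10 enzymes. Whether RNA from other tissue entered any of the libraries was not tested.

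**Figure D5:**
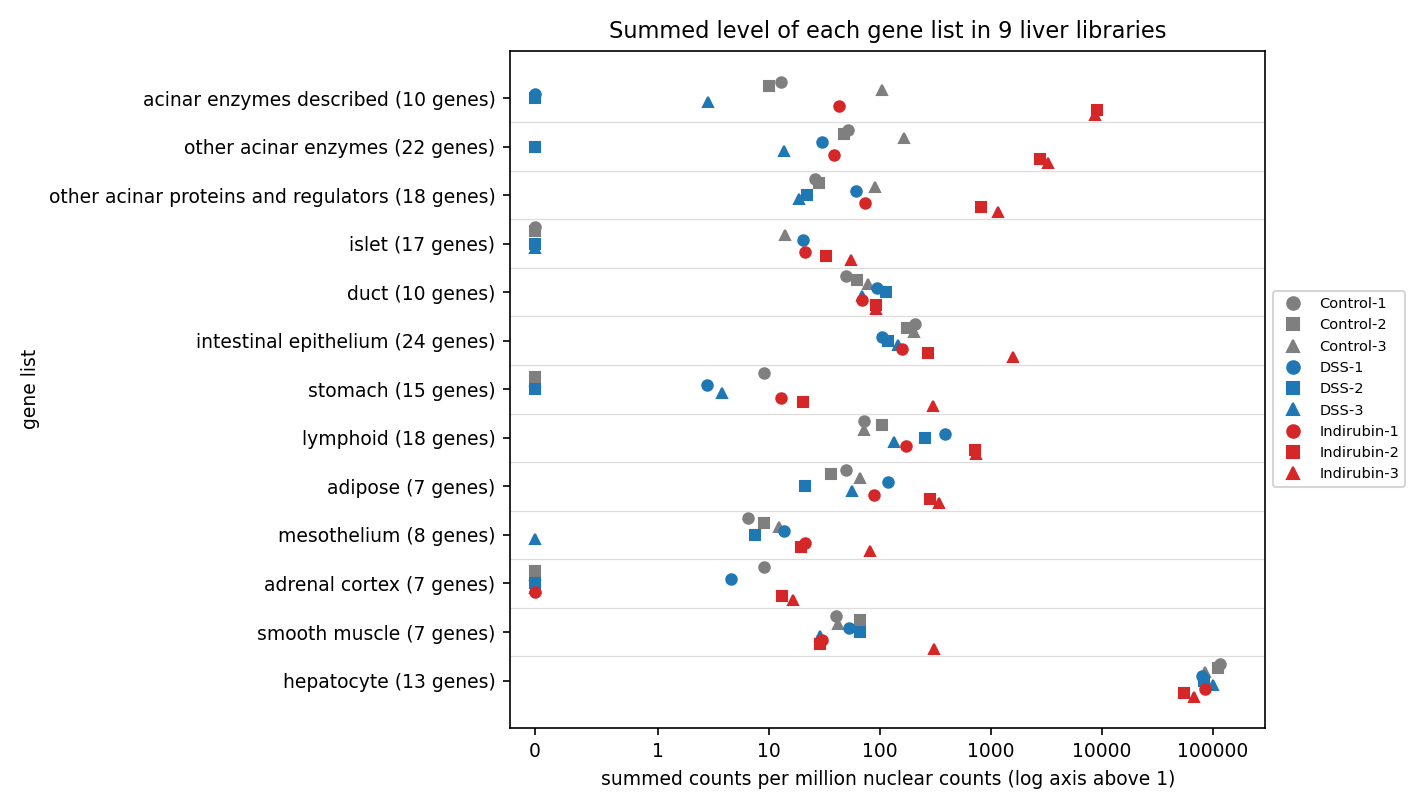
Summed level of each gene list (horizontal axis, nuclear CPM, log above 1), with 1 symbol for each library. The 10 acinar enzymes reach 9113 and 8806 in Indirubin-2 and Indirubin-3 and 105 or less elsewhere, the stomach list reaches 303 in Indirubin-3 and 20.4 in Indirubin-2, and the hepatocyte list lies between 55102 and 117481 throughout.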

How the data were processed

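Liver total RNA was sequenced as 9 libraries on a DNBSEQ instrument and, per the submitters' processing notes, aligned to GRCm39. The aligner, counter and annotation are not given in the sources used here. The authors deposited raw read counts per gene as whole numbers. The authors also deposited FPKM values, which equal counts divided by gene length and by a library size other than the total count. These were used for levels per length. Columns with the authors' group means, fold changes and p-values, and 3 gene lists without values per library, were not used.

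Nuclear CPM was computed over genes outside the mitochondrial genome. A group with 3 or fewer counts in each library was taken at the floor of 3 counts. Intervals are exact Clopper-Pearson binomial intervals at 95% (scipy 1.17.1). The quasi-likelihood test of edgeR 4.0.16 (glmQLFit, glmQLFTest, R 4.3.3) was run with TMM factors, the default filterByExpr (minimum count 10, minimum total 15) and Benjamini-Hochberg adjustment over the genes tested, on the 6 libraries of each comparison, and the code was tested on simulated data. The standard error is the log2 fold change divided by the square root of F. Alternatives were the Wald test of DESeq2 1.42.0, its size factors, no filter, all 9 libraries in 1 fit, the replicate block, the enzyme genes left out, each library left out and, added after the data were seen, the mitochondrial genes left out. No 2 libraries were identical.

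The 10 genes and all gene lists were chosen with earlier results of these data known. Named are the 10 genes, the 12 other acinar genes with the most counts, the 3 with the most counts of every other list and the 10 most alike in profile. Some genes that this rule names are not reported here. Ptf1a, Rbpjl, Nr5a2, Bhlha15, Gcg, Cela3a, Amy1, Amy2a4, Fabp2, Lct, Muc2, Cdx1, Pgc, Atp4a and Atp4b were named after their values were seen. Of 14 hepatocyte genes listed, 13 were found. Promoter windows came from RefSeq tables of GRCm38.p6, whose coordinates are not those of the counts. Python 3.11.15 with pandas 2.3.3 served for tables and matplotlib 3.10.9 for plots.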

Additional observations from a re-analysis of the deposited data

How the results depend on the processing

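The mean share of nuclear counts taken by the 10 enzymes with indirubin, 0.599%, was 0.442% to 0.896% when a library was left out (0.896% without Indirubin-1), 0.500% without the genes with near-identical copies and 0.153% over all counts. The Indirubin-3 share of the enzyme counts was 46.3% by deposited FPKM against 47.3%. Counts of genes called depended on the processing. Against DSS, where 0 genes passed, the DESeq2 Wald test called 80, no filter 156 and all 9 libraries in 1 fit 4. Leaving out a library gave 0 to 134, the highest without Indirubin-1. Against Control, where 19 passed, these were 316, 379 and 56, and leaving out a library gave 1 (without Control-2) to 465 (without Indirubin-1), with each of the 6 libraries moving the count by over 1.5 times. Of the other acinar genes, where 0 passed, no filter called 18 of 35 against DSS and 17 of 35 against Control. The DESeq2 Wald test called 1 against Control. Leaving out a library gave 0 to 15 against DSS and 0 to 16 against Control, the highest without Indirubin-1. There 24 of the 40 entered each test, most only through high counts in Indirubin-2 and Indirubin-3. All genes tested there were 10817 against DSS and 9721 against Control. The cause was not tested. Same-numbered libraries had correlations of 0.00579 to 0.0328, so the groups were taken as unpaired, and the fit with the replicate block called 3 against DSS and 49 against Control. Every Indirubin library correlated best with its own number in Control but not in DSS. The other alternatives left each count within 1.5 times its main value. Nuclear totals of 569044 to 2132208 limit what low genes can show.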

Other observations

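Other gene lists also differed between the libraries. The 18 lymphoid genes summed to 72.1 to 105 nuclear CPM in Control, 134 to 384 with DSS and 174, 721 and 742 with indirubin. Cxcl13, a chemokine that attracts B cells, had 1325 counts in Indirubin-2, 1148 in Indirubin-3, 4 in Indirubin-1 and 24, 50 and 88 with DSS. The level of the B-cell gene Igkc was 52.7, 9.42 and 15.8 nuclear CPM in Indirubin-1 to Indirubin-3, 45.9 to 81.7 in the DSS libraries and 22.2 to 34.9 in Control, and that of Ighm was 18.5, 2.62 and 26.5 against 10.8 to 108 and 0 to 21.2. The 7 adipose genes summed to 36.4 to 66.8 nuclear CPM in Control, 21.0 to 117 with DSS and 88.3, 282 and 339 with indirubin. Fabp4, a fatty acid carrier of fat and endothelium, accounted for 523 and 565 counts in Indirubin-2 and Indirubin-3, and Retn and Plin1 had 25 or fewer in any library.

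Mesothelium genes summed to 19.4 nuclear CPM in Indirubin-2, 82.4 in Indirubin-3 and 0 to 21.4 in the other libraries, with Wt1 (29 and 100 counts), Gpm6a (5 and 21) and Upk3b (3 and 9). The level of Wt1 was 17.1, 15.2 and 56.5 nuclear CPM in Indirubin-1 to Indirubin-3. Gpm6a reached 11.9 in Indirubin-3 and 8.79 in Control-3, and Upk3b 5.08 in Indirubin-3 and 6.46 in Control-1. Smooth muscle genes summed to 28.8 and 305 nuclear CPM and to 29.1 to 66.9 elsewhere, and of the 541 counts in Indirubin-3 Des alone gave 509, against 39 in Indirubin-2. Myh11 had 2 counts in Indirubin-2 and 16 in Indirubin-3 but also 9 in Control-2 and 9 in Indirubin-1, where its level of 12.8 nuclear CPM was above the 9.03 of Indirubin-3. Actg2 had 0 and 15 counts in Indirubin-2 and Indirubin-3 and 4 or fewer elsewhere. The 7 adrenal cortex genes summed to 13.1 and 16.4 nuclear CPM and to 0 to 9.05 elsewhere, with Star at 11 and 29 counts, Cyp11a1 at 8 and 0 and Hsd3b1 at 6 and 0. The hepatocyte list was led by Alb, Fgb (20040 and 30039 counts) and Apoa1 (11216 and 10194). Cep85, chosen after its values were seen, had 25789 and 35010 counts in Indirubin-2 and Indirubin-3 and 4160 in the other 7 libraries together, and was 17th in likeness to the summed enzymes.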
